A study of Mus musculus with 14 samples.

Results

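The casein genes Csn1s1, Csn2, Csn1s2a and Csn3 and the imprinted neighbours Peg10 and Sgce were followed in group 2 innate lymphoid cells (ILC2s) sorted from mouse lung. These 6 genes, of 53278 genes in the count tables, were matched by symbol in the count and TPM tables (transcript levels scaled for gene length and depth) of both experiments. Csn1s1 and Peg10 were selected on these data, because they were among the largest rises after IL-33. The other casein genes and Sgce were added as their neighbours in the genome. The change of the 6 genes after IL-33 is therefore given as a description, with no test. Their change in the Blimp-1 experiment comes from libraries that the rule for choosing them did not use. Earlier results of these data were known when the genes were chosen.

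The stimulation experiment held 8 female B6 mice in 2 groups of 4, with 1 library per mouse. IL-33 stimulated ILC2s had IL-33 at 20 ng/mL in complete RPMI over 24 h, and unstimulated ILC2s received no IL-33. The series describes the unstimulated cells both as cultured for the same time without IL-33 and as ex vivo, and if they were not cultured, a change from culture and a change from IL-33 cannot be told apart. The Blimp-1 experiment held 3 ControlIL7RaCre mice (Control) and 3 Blimp-1IL7RaCre mice (Blimp-1-deficient), all female and matched for age, whose ILC2s were activated with IL-33 and IL-25 at 20 ng/mL each for 72 h. The study's methods also name IL-2, a cytokine that signals through STAT5, in this culture and in ILC2 cultures in general, while the sample labels name it for neither experiment, so its presence in the 24 h cultures is not settled. All 6 of these mice carried the Cre recombinase driven by Il7r, which is active in innate lymphoid cells and also in T, B and NK cells, so the deletion was not limited to ILC2s. In both experiments the sort took live, lineage-, CD90.2+, CD3- cells. In these bulk samples fewer expressing cells and less RNA per cell cannot be told apart.

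Caseins are the main proteins of milk. The alpha-s1, beta and alpha-s2 type caseins and kappa-casein, which stabilises the casein micelle, are encoded side by side in 1 cluster, and in the mammary gland their transcription is driven by prolactin through STAT5. Lymphocytes use STAT5 for signals from IL-2, IL-7 and related cytokines. Peg10 is a paternally expressed gene derived from a retrotransposon of the Ty3/gypsy type that encodes a Gag-like protein and is needed for the placenta, and Sgce, the gene of epsilon-sarcoglycan, is expressed from the paternal allele and transcribed away from Peg10. ILC2s are lymphocytes without antigen receptors that make type 2 cytokines when the alarmin IL-33 binds their receptor ST2, and Blimp-1, encoded by Prdm1, is a transcriptional repressor.

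Csn1s1 (ENSMUSG00000070702.9, alpha-s1-casein) lies on the plus strand of chromosome 5 from 87666208 to 87682578 in GRCm38. Csn2 (ENSMUSG00000063157.9, beta-casein) follows 10045 bases further on, from 87692624 to 87699630 on the minus strand, so that the 3' ends of the pair face each other. Csn1s2a (ENSMUSG00000061937.7, an alpha-s2 type casein) spans 87774567 to 87788797 and Csn3 (ENSMUSG00000001622.15, kappa-casein) spans 87925579 to 87932665, both on the plus strand. Between them lies another casein gene, Csn1s2b, from 87808082 to 87824426, and the cluster from Csn1s1 to Csn3 covers 266458 bases. On chromosome 6, Sgce (ENSMUSG00000004631.15) runs on the minus strand from 4674350 to 4747207 and Peg10 (ENSMUSG00000092035.8) on the plus strand from 4747306 to 4760517, and their 5' ends are 98 bases apart. No exon base of the 6 genes is overlapped by another annotated gene. Reads of 75 bases from Csn1s1, Csn2, Csn1s2a, Peg10 or Sgce have no identical stretch elsewhere in the annotated transcripts, and 0.0716% of such stretches of Csn3 are shared with Pmf1.

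The promoters of the caseins are shown because STAT5 acts on them in the mammary gland and because Csn1s1 and Csn2 were higher together after IL-33. RefSeq promoter sequences of 250 bases before to 50 after the start were at hand for 3 of the 6 genes. Capitals mark TTCNNNGAA, the letters that STAT5 binds, which read the same on both strands. The windows are chr5:87665958-87666257 on the plus strand for Csn1s1, chr5:87699376-87699675 on the minus strand for Csn2 and chr5:87774200-87774499 on the plus strand for Csn1s2a, in GRCm38.p6.
Csn1s1: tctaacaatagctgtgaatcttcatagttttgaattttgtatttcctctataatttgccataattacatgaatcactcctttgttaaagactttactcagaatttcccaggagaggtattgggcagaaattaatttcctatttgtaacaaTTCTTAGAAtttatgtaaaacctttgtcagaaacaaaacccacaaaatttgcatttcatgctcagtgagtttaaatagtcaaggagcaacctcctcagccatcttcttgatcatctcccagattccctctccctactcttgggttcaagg
Csn2: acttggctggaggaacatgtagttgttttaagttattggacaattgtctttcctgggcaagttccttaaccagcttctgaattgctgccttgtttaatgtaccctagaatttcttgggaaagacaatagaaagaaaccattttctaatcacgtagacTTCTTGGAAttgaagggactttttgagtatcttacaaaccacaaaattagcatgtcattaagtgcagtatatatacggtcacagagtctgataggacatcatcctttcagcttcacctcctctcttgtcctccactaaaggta
Csn1s2a: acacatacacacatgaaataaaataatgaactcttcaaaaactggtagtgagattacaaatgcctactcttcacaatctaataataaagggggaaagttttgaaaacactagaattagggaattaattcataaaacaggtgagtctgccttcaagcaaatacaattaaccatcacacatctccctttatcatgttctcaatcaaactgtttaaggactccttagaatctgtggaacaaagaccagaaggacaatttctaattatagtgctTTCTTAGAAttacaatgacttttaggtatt
The RefSeq start of Csn1s1 is that of the annotation used above, while that of Csn2 lies 205 bases inside the gene as given above and that of Csn1s2a 117 bases before it. Counted from the RefSeq starts, the letters TTCTTAGAA begin 100 bases before the start of Csn1s1, and TTCTTGGAA begins 93 bases before that of Csn2, which is within the span of Csn2 given above. In Csn1s2a TTCTTAGAA lies 20 bases after the RefSeq start. All 3 windows therefore held the motif, which occurred in 8.30% of the 32851 promoter windows of the same length. The letters GTGAAAG, a core of sites that Blimp-1 binds, were searched on both strands. They occurred in 4.24% of all windows and in none of these 3. A match or its absence describes the letters of a window and is no evidence that a factor binds there.

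The 8 stimulation libraries held 10470125 to 32849428 counts and the 6 Blimp-1 libraries 13570188 to 76448945. Levels are given as CPM, counts scaled for library size with edgeR's TMM factors within each experiment. IL-33 stimulated replicate 3 had the fewest counts of its experiment and stood apart from its group. Control replicate 2 had the fewest of the other, with 76.8% of its counts in 7 genes against 4.16% to 5.57% in the other 5 libraries. Results that rest on these libraries are given with and without them. Where a gene had 0 counts, its level can have reached what 3 counts give, which is 0.0859 to 0.127 CPM in the unstimulated libraries, 0.296 CPM in IL-33 stimulated replicate 3, 0.731 CPM in Control replicate 2 and 0.0310 to 0.0387 CPM in the other libraries of the Blimp-1 experiment. These limits cover counting error only. All 15 ILC2 markers were above 3 counts in every library, and their summed level was 9648 to 10940 CPM in unstimulated and 29950 to 48710 CPM in IL-33 stimulated ILC2s. Of the 15, Il13, Il5, Areg and Il2ra were higher after IL-33 and 9 were lower (edgeR, adjusted p below 0.05), beside 16.2% and 16.1% of all genes. Among those lower were Gata3 and Il1rl1, the gene of ST2, and the median log2 fold change of the 15 was -0.37. Prdm1, the deleted gene, was at 80.7 ± 10.5 CPM (SD, n = 3) in Control and 12.5 ± 1.78 CPM (SD, n = 3) in Blimp-1-deficient ILC2s.

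Csn1s1 was close to undetected without IL-33 and was the second largest of all fold changes after it among well-expressed genes. The unstimulated libraries held 0, 0, 0 and 4 counts, which is 0 CPM in replicates 1 to 3 and 0.126 CPM in replicate 4. The IL-33 stimulated libraries held 845, 1101, 212 and 1016 counts, or 27.8, 35.7, 20.9 and 36 CPM. Every stimulated library was far above every unstimulated library, and replicate 3 was the lowest of the 4. The group means were 0.0315 ± 0.0630 and 30.1 ± 7.21 CPM (SD, n = 4 each), and the stimulated mean was 33.1 ± 4.65 CPM without replicate 3. The fitted log2 fold change was 9.64 (SE 0.87), and 9.78 (SE 0.37) without IL-33 stimulated replicate 3. It rests on 4 unstimulated counts against 3174 stimulated counts, a ratio of 947 with a 95% counting interval from 369.5 to 3478. Without unstimulated replicate 4, the only unstimulated library with a count, the fit gave 12.67, a value that depends on the prior count and is no bound.

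Csn2 had the same pattern at a lower level. It had 0, 0, 0 and 3 counts in the unstimulated libraries, with 0.0945 CPM in replicate 4, and 92, 71, 37 and 79 counts in the stimulated libraries. These are 3.02, 2.30, 3.64 and 2.80 CPM, so the groups did not overlap, and here replicate 3 was the highest of the 4. The mean after IL-33 was 2.94 ± 0.558 CPM (SD, n = 4), and 2.71 ± 0.370 CPM without replicate 3. The fitted log2 fold change was 6.64 (SE 0.90), and 6.53 (SE 0.59) without IL-33 stimulated replicate 3. The ratio over the summed counts, 3 against 279, was 111 with a counting interval from 37.59 to 541.5. Without unstimulated replicate 4 the fit gave 9.34, again with no count left in the unstimulated group.

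The alpha-s2 type genes Csn1s2a and Csn1s2b had fewer counts still. Csn1s2a had 0 counts in all 4 unstimulated libraries and 1 count in IL-33 stimulated replicate 1, 0.0329 CPM, with 0 in the others, so it was not detectable at this depth in either group. Csn1s2b, the casein gene outside the 6, had 0 counts in every unstimulated library and 10, 12, 3 and 32 counts, or 0.329, 0.389, 0.296 and 1.13 CPM, in the stimulated libraries. Its groups did not overlap, so that it had the pattern of Csn1s1 and Csn2 at a still lower level. Its summed counts were 0 against 57, which is 22.68-fold if the whole unstimulated group is set at a floor of 3 counts. The lower 95% counting limit of the ratio, which takes in the error of both counts, was 17.85. It was below edgeR's filter, and with 0 counts in 1 group no p-value is given for it. A count of DESeq2 calls given below includes Csn1s2b, and that call rests on the stimulated group alone.

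Csn3, which encodes kappa-casein, differed in the opposite direction. It was at 2.78, 1.89, 1.91 and 1.80 CPM in the unstimulated libraries and at 0.756, 0.907, 1.38 and 0.531 CPM in the stimulated libraries, from 45 to 80 counts and from 14 to 28 counts. The 2 groups did not overlap, and stimulated replicate 3 was again the one nearest to the unstimulated libraries. The means were 2.09 ± 0.459 and 0.893 ± 0.359 CPM (SD, n = 4 each), with a log2 fold change of -1.25 (SE 0.34) and of -1.51 (SE 0.28) without IL-33 stimulated replicate 3.

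Peg10 went from a low to a high level. Its unstimulated libraries were at 3.68, 2.83, 3.10 and 4.41 CPM, from 73 to 140 counts. Its stimulated libraries were at 604, 519, 399 and 760 CPM, from 4053 to 21472 counts. The lowest stimulated library, replicate 3, was still far above the highest unstimulated one. The means were 3.51 ± 0.699 and 570.5 ± 152 CPM (SD, n = 4 each), or 628 ± 122 CPM after IL-33 without replicate 3. The log2 fold change was 7.34 (SE 0.27), and 7.48 (SE 0.18) without IL-33 stimulated replicate 3. In deposited TPM the same change was from 1.82 ± 0.377 to 236 ± 62.8.

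Sgce, whose start is 98 bases from that of Peg10, was modestly higher. It was at 2.99, 2.38, 3.95 and 2.90 CPM in the unstimulated libraries and at 4.70, 5.83, 10.8 and 7.36 CPM after IL-33. The groups did not overlap, and the highest value was that of stimulated replicate 3. The means were 3.05 ± 0.657 and 7.18 ± 2.67 CPM (SD, n = 4 each), the latter 5.96 ± 1.34 CPM without replicate 3. The log2 fold change was 1.23 (SE 0.31), and 0.97 (SE 0.21) without IL-33 stimulated replicate 3. Its increase on the log2 scale was thus a small part of that of Peg10.

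**Figure D1:**
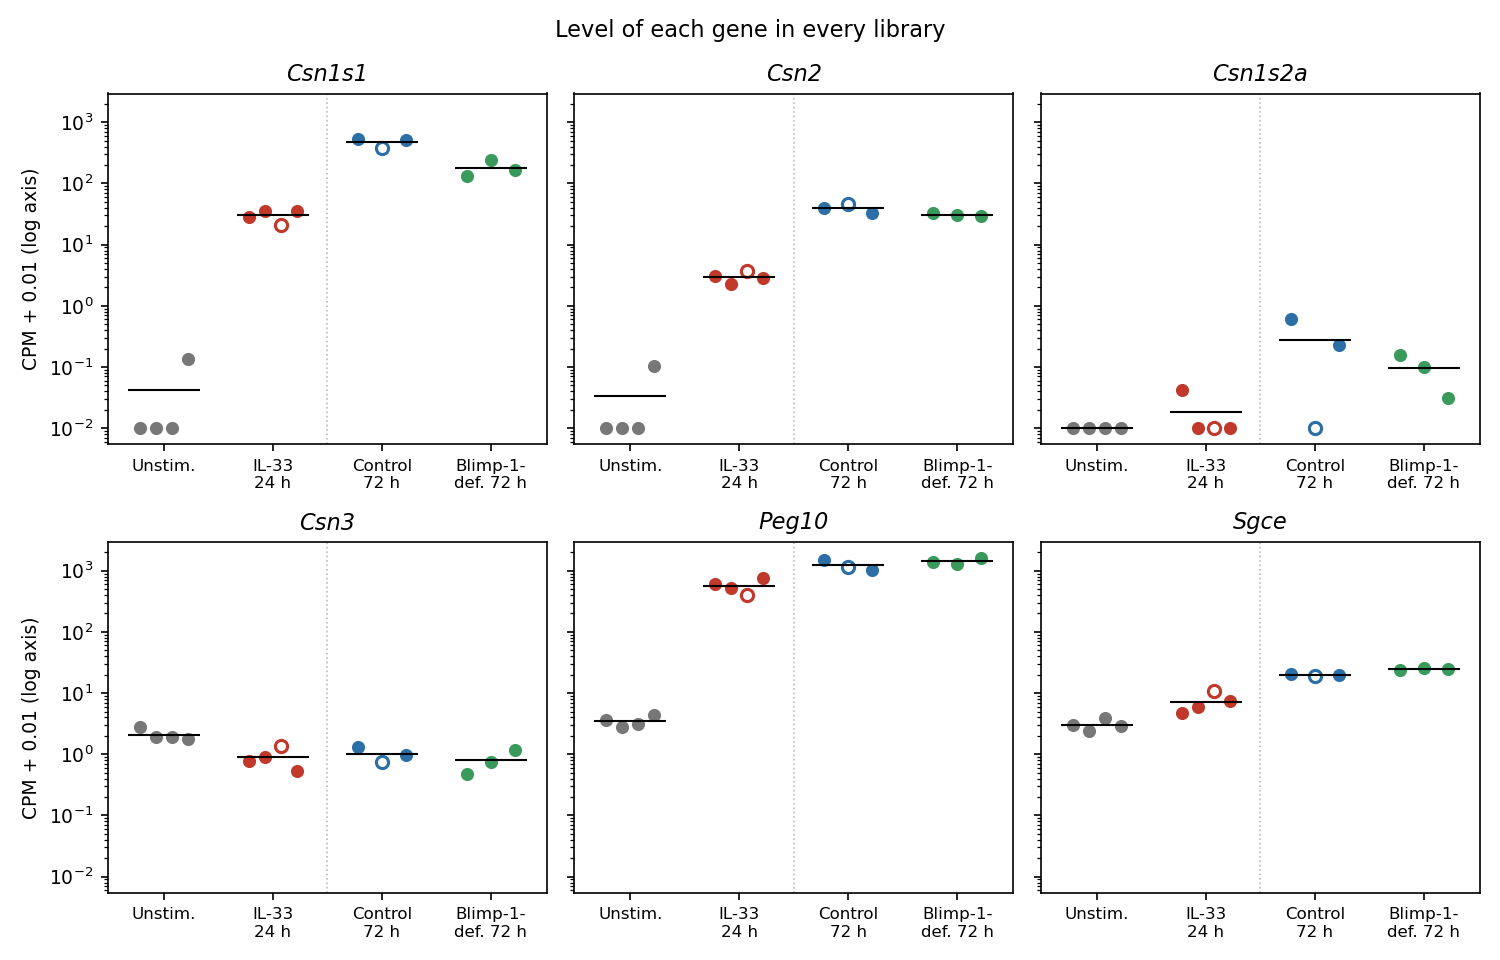
Level of each gene in every library, as CPM + 0.01 on a log axis, with unstimulated and IL-33 stimulated ILC2s (24 h) left of the dotted line and Control and Blimp-1-deficient ILC2s (72 h) right of it. Points are libraries, lines are group means, and open circles are IL-33 stimulated replicate 3 and Control replicate 2. Peg10 lies at 2.83 to 4.41 CPM without IL-33 and at 399 to 760 CPM with it, while Csn3 is highest in the unstimulated libraries.

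Of the 6 genes, 5 passed the filter on low counts in this experiment and Csn1s2a did not. Csn1s1 and Csn2 passed it through the stimulated group alone. Among all 15466 genes tested, 16.2% were higher and 16.1% lower after IL-33 at an adjusted p below 0.05 (edgeR, Benjamini-Hochberg), and the median log2 fold change was 0.058. The groups of all 5 genes did not overlap, 4 of them higher and 1 lower after IL-33, which was so for 17.0% of all genes tested in the higher and 20.9% in the lower direction, and the choice of the genes helped to set this count. By fold change Csn1s1 ranked 3, Peg10 12, Csn2 18, Sgce 1885 and Csn3 14679 of the 15466 genes. Among the 10810 genes with a mean of at least 5 CPM over the 8 libraries, the order at the top was Il9, Csn1s1, Il24, Peg10, Il13, Cxcl2 and Hamp. The cytokine gene Il24, next below Csn1s1, had a log2 fold change of 9.02. Below Peg10 followed the type 2 cytokine gene Il13 at 6.68, the neutrophil chemokine gene Cxcl2 at 6.65 and Hamp, the gene of the iron regulator hepcidin, at 6.53.

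Over the 8 libraries, the genes with the log2 level most like that of Csn1s1 were Tmtc2 (Pearson r = 0.999), Edem3, Trappc13, Il13 (r = 0.997) and Il5 (r = 0.997). For Peg10 they were Csf2, the gene of GM-CSF (r = 0.999), Il5, Cxcl3, Tmtc2 and Slc33a1. The Il5 level rose by 4.98 and the Csf2 level by 5.88 on the log2 scale. For Sgce they were Gas2l1 (r = 0.985), Eny2, Slc30a4, Ap2a1 and Maip1. A difference between 2 groups of 4 dominates these values, and 71 genes for Csn1s1 and 132 genes for Peg10, of 10809 compared, had an r above 0.99, against 0 for Sgce. These correlations describe libraries that share treatment and depth and carry no test.

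Per kilobase of exon, counted over the exons of all annotated transcripts of a gene, Peg10 stood at 85.6 ± 22.7 CPM after IL-33. Csn1s1 was at 4.81 ± 1.15, Sgce at 0.677 ± 0.251, Csn2 at 0.425 ± 0.0805 and Csn3 at 0.215 ± 0.0864 (SD, n = 4). This length covers 3 annotated transcripts of Peg10, 14 of Csn1s1, 13 of Sgce, 11 of Csn2 and 6 of Csn3. It can exceed that of the transcript expressed, so levels and ratios per length between genes are approximate. A ratio compared between libraries is not affected by the length. Without IL-33 the order was Peg10 at 0.526 ± 0.105, Csn3 at 0.504 ± 0.110, Sgce at 0.288 ± 0.0619 and then Csn1s1 and Csn2 near 0. Thus kappa-casein was the casein with the highest level per length in unstimulated ILC2s and lay below Csn1s1 and Csn2 after IL-33. Within each library the ratio of Csn1s1 to Csn2 per base of exon was 10.2, 17.2, 6.35 and 14.3 after IL-33. The ratio of Peg10 to Sgce was 1.96, 1.90, 1.25 and 2.42 in unstimulated and 204, 142, 58.6 and 164 in stimulated libraries. For both ratios replicate 3 was the lowest stimulated library.

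**Figure D2:**
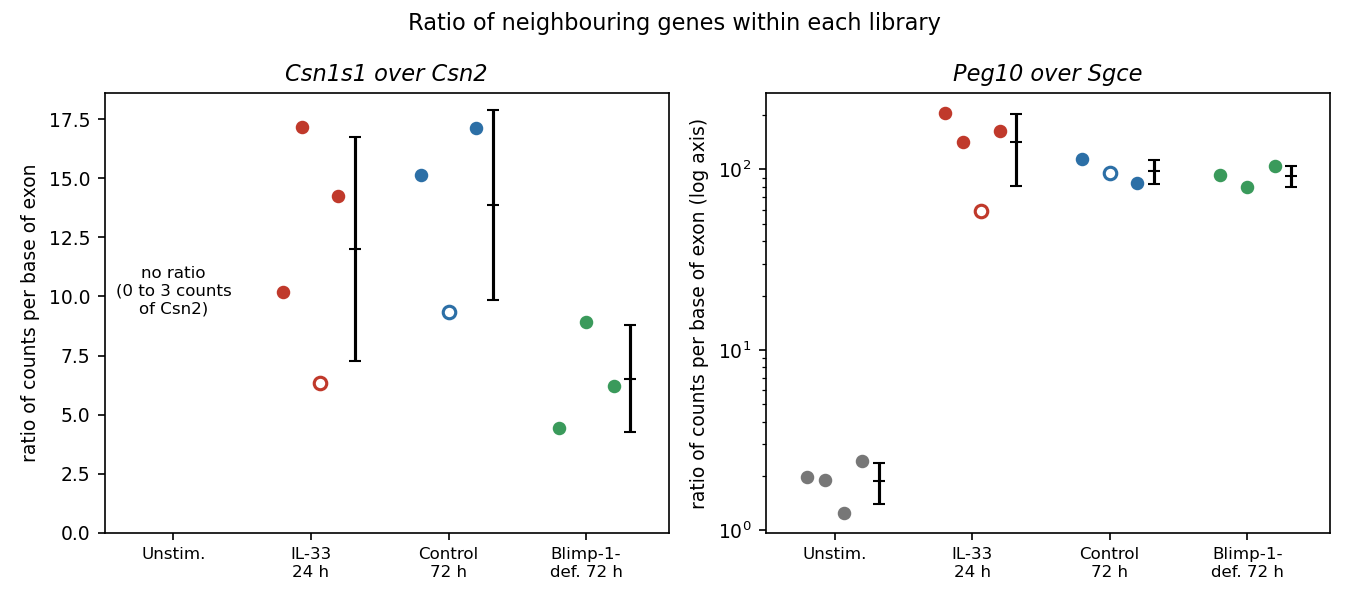
Ratio of Csn1s1 to Csn2 (left, linear axis from 0) and of Peg10 to Sgce (right, log axis) per base of exon in each library, with group mean and SD as bars beside the points. Open circles are IL-33 stimulated replicate 3 and Control replicate 2, and no ratio was formed where Csn2 had 3 counts or fewer. The Peg10 to Sgce ratio lies between 1.25 and 2.42 in unstimulated libraries and between 58.6 and 204 in the other libraries.

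The neighbours of both regions were read from lists of genes in chromosomal order. Around the caseins, 16 of 18 listed neighbours were in the tables and most had 0 or very few counts in all libraries, among them Odam, which lies inside the cluster, at 0 throughout. Only Utp3 and Rufy3 passed the filter in the stimulation experiment, and 0 of the 2 passed the test (edgeR, 0 also at an unadjusted p below 0.05, and neither in DESeq2), with Utp3 at 80.7 and 84.0 CPM and Rufy3 at 14.7 and 14.5 CPM without and with IL-33 (log2 fold change of Rufy3 -0.02, adjusted p = 0.979, edgeR). Rufy3 reached 33.4 CPM in IL-33 stimulated replicate 3 against 7.54 to 9.23 CPM in the other stimulated libraries, and without that replicate it was lower after IL-33 (log2 fold change -0.83, adjusted p = 2.818e-04, edgeR) and Utp3 was higher (0.18, adjusted p = 0.0120, edgeR), so that both changed call, in opposite directions. Around Peg10 and Sgce, 10 of 14 listed neighbours were tested, of which 3 were higher and 1 was lower, beside 16.2% and 16.1% of all genes, with a median log2 fold change of 0.38. DESeq2 called 4 higher, with Asb4 added, and 2 lower, with Gng11 added. Without IL-33 stimulated replicate 3, Gng11, a G protein subunit gene (log2 fold change -0.90, adjusted p = 0.00742, against -0.73, adjusted p = 0.0811, over all libraries, edgeR), and Pdk4, a kinase gene of glucose metabolism (-2.49, adjusted p = 0.00431, against -1.28, adjusted p = 0.308, edgeR), were lower too. Bet1, for vesicle transport, was at 25.6 and 41.7 CPM (log2 fold change 0.70, adjusted p = 2.99e-04, edgeR), and Pon2, a paraoxonase, and Casd1, a sialic acid acetyltransferase, rose by 0.43 and 0.32. Col1a2, a collagen gene of stromal cells, fell from 146.6 ± 45.2 to 50.2 ± 6.28 CPM (SD, n = 4). Ppp1r9a, next to Peg10 on its far side, was at 1.35 to 1.59 CPM in 3 stimulated libraries and at 42.7 CPM in replicate 3, and Dync1i1, a dynein subunit gene at the end of the list, was at 37.9 CPM there against 0.389 to 0.637 CPM in the others. Neither passed the test (adjusted p = 0.114 and 0.129, edgeR). Both high values were thus those of a single library, the same one that had the highest Sgce.

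**Figure D3:**
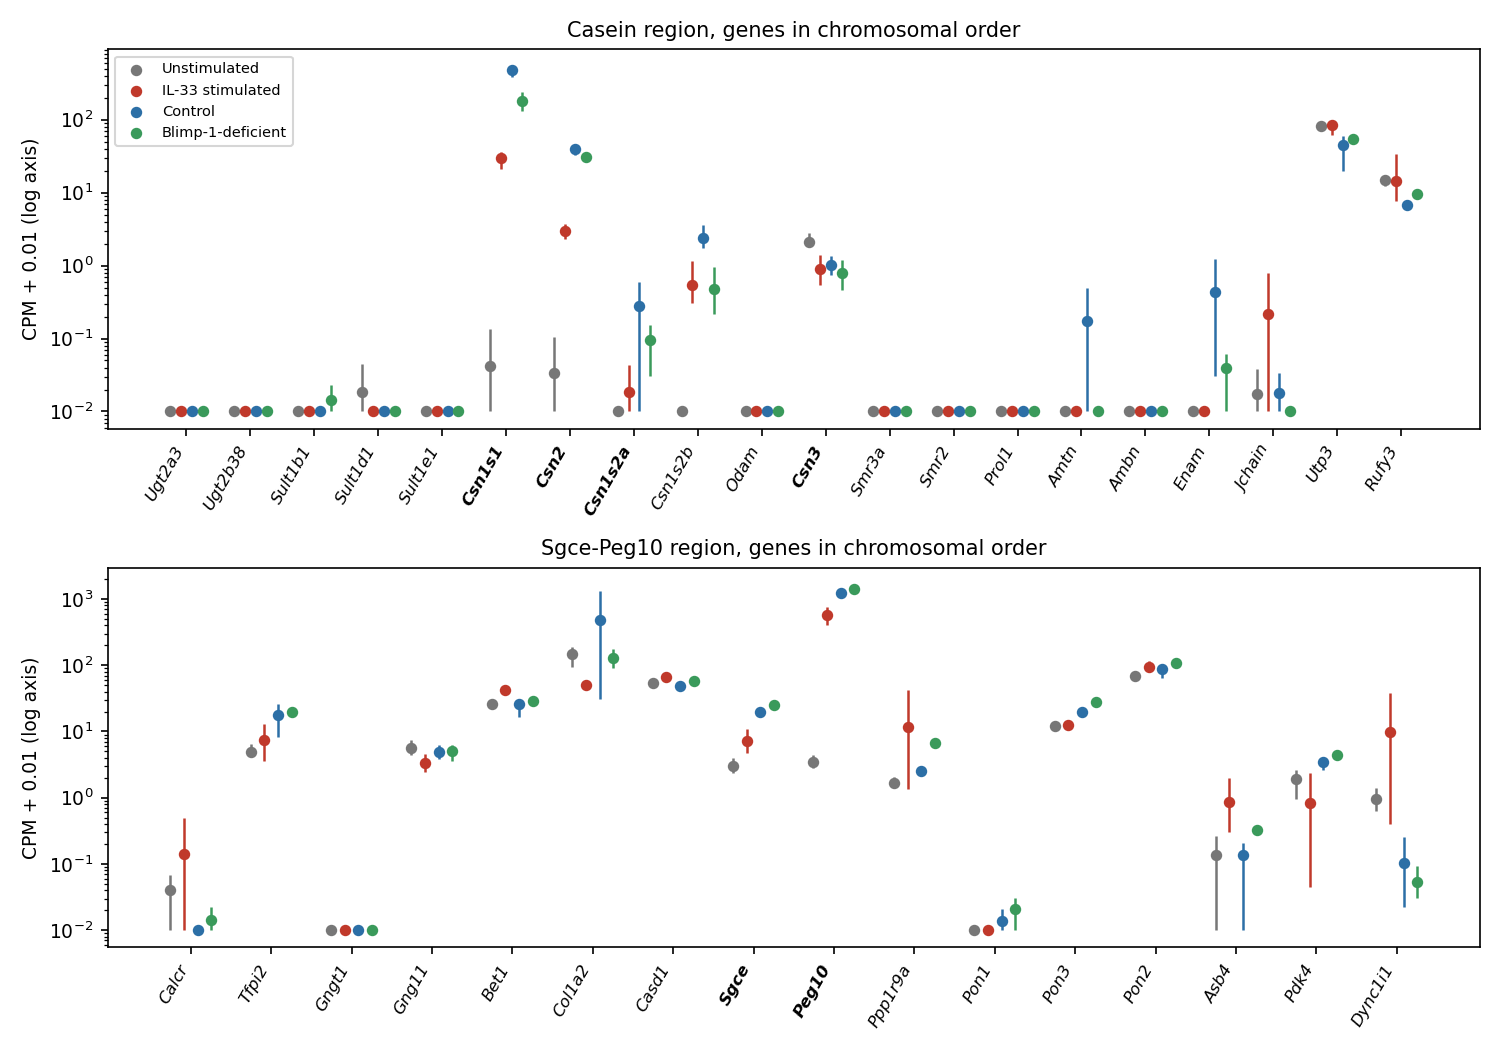
Levels of genes in chromosomal order around the caseins (top) and around Sgce and Peg10 (bottom), as CPM + 0.01 on a log axis. Points are group means, vertical lines run from the lowest to the highest library, and the 6 followed genes are in bold. Csn1s1 and Csn2 lie among genes at or near 0, such as Sult1e1 and Odam, while Utp3 and Rufy3 have group means from 6.75 to 84.0 CPM, and the long lines at Ppp1r9a and Dync1i1 come from IL-33 stimulated replicate 3.

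Gene lists around these functions were then counted, without the 6 genes. Of 195 listed genes, 125 were tested after IL-33, of which 22 were higher and 15 were lower, beside 16.2% and 16.1% of all genes. Leaving out IL-33 stimulated replicate 3 gave 31 and 40, beside 27.5% and 29.7% of all genes. Leaving out IL-33 stimulated replicate 1 gave 9 lower, beside 2064 lower of all 15848 genes tested in that setting. At an unadjusted p below 0.05 (edgeR) there were 29 higher and 19 lower, beside 22.6% and 21.3% of all genes, and DESeq2 called 28 (Csn1s2b, at 0 counts in all unstimulated libraries, included) and 20, beside 19.5% and 18.8%. Of 45 other imprinted genes tested, 6 were higher and 2 were lower (median log2 fold change 0.27). Those with the largest rise were Dlk1, a Notch ligand relative, from 0.185 to 1.39 CPM (log2 fold change 2.82, adjusted p = 0.0396, and 1.5, adjusted p = 0.0115, without IL-33 stimulated replicate 3, edgeR), Sfmbt2, a Polycomb gene (1.23), Mcts2 (0.95) and H13 (0.87), while Peg13 (-0.62) and Trappc9 (-0.35) fell. Of 10 genes derived from retrotransposon Gag, the class to which Peg10 belongs, 0 were higher (edgeR, 0 also at an unadjusted p below 0.05 and in DESeq2), and Pnma1 fell from 16.3 ± 1.92 to 1.03 ± 0.214 CPM (SD, n = 4, log2 fold change -3.99).

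Milk genes outside the casein cluster were mostly undetected. Of 24 listed, 7 were tested, of which 1 was higher and 2 were lower, beside 16.2% and 16.1% of all genes. Plin2, which coats lipid droplets, rose by 0.74 on the log2 scale (adjusted p = 0.0176, edgeR), and Mfge8, a protein of milk fat globules, and Muc1, a mucin of epithelial surfaces, fell by 0.55 and 1.68. The whey protein gene Wap and the alpha-lactalbumin gene Lalba were below the filter, with mean levels of at most 0.0163 CPM in any group. Prlr, the prolactin receptor gene, was below the filter at 0.132 and 0.313 CPM. Elf5, a mammary epithelial transcription factor gene, was at 0 in unstimulated ILC2s and had 0.616 ± 1.23 CPM after IL-33, all of it from 1 library.

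In the list of prolactin and STAT5 signalling, 17 genes were tested, with a median log2 fold change of -0.07. Of the 17, 2 were higher, beside 16.2% of all genes. These were Jak2, a kinase below the prolactin receptor, from 186.6 ± 3.84 to 541.2 ± 68.4 CPM (log2 fold change 1.54, adjusted p = 3.1e-05, edgeR), and Ybx1, an RNA-binding protein gene, by 0.52. Stat5a (0.32, adjusted p = 0.250) and Stat5b (0.20, adjusted p = 0.120) did not pass the test over all libraries and passed it without IL-33 stimulated replicate 3 (0.49 and 0.29, adjusted p = 6.99e-04 and 3.19e-04, edgeR). Of 23 genes known as STAT5 targets in lymphocytes, all tested, 10 were higher and 6 were lower, beside 16.2% and 16.1% of all genes. Their median log2 fold change was 0.35. The costimulatory receptor gene Tnfrsf4 (2.96), the cytokine gene Lta (2.56), the kinase gene Pim2 (2.54) and Myc (1.65) had the largest rises. Igf1 (-2.05), Id1 (-1.16), the granzyme gene Gzmb (-0.99) and the survival gene Bcl2 (-0.93) had the largest falls. Of 11 genes of the dystrophin-glycoprotein complex, to which epsilon-sarcoglycan belongs, 0 were higher (edgeR, 0 also at an unadjusted p below 0.05 and in DESeq2). The syntrophin genes Sntb1 (-1.0) and Sntb2 (-0.62) and the dystrobrevin gene Dtnb (-0.29) fell. Over all genes 16.2% were higher and 16.1% lower.

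Caseins are made by epithelium, so markers of epithelial and other cells were summed beside them. The 14 epithelial markers, 2 of them above 3 counts in every library, summed to 53.2 to 85.8 CPM in unstimulated and to 2.73 to 16.3 CPM in stimulated libraries. The 2 that passed the filter lay on either side of 0, with Epcam lower. The highest of the stimulated libraries was replicate 3. The airway and alveolar markers Sftpa1, Scgb1a1 and Scgb3a2 were at 0 counts in every stimulated library, and Krt5 and Sftpc had at most 3. The 11 stromal and endothelial markers, all above 3 counts in every library, summed to 501.4 to 913.8 CPM without and 310.7 to 550.7 CPM with IL-33. The T cell markers (10 genes) summed to 82.7 to 103 and to 24.4 to 42.7 CPM, the B cell markers (8 genes) to 27.5 to 34 and to 27.0 to 31.7 CPM, the myeloid markers (12 genes) to 189.4 to 447.5 and to 161.2 to 408.4 CPM, and the mast cell or basophil markers (8 genes) to 305.4 to 370.7 and to 130.0 to 185.3 CPM. The 2 mast cell or basophil markers that passed the filter, Cpa3 and Kit, were lower after IL-33, beside 16.1% of all genes. Ms4a2, a defining mast cell and basophil marker, was at 0 in both groups. The part of any of these cells in the levels of the 6 genes was not tested.

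The Blimp-1 experiment asked whether loss of Blimp-1 altered these genes in ILC2s after 72 h with IL-33 and IL-25. All 6 genes passed the filter here, and 0 of the 6 passed the test over all libraries (edgeR, adjusted p below 0.05), with 2 lower (Csn1s1 and Csn2) and 1 higher (Sgce) at an unadjusted p below 0.05, beside 5.78% and 6.17% of all genes, and Csn1s1 called lower and Sgce higher by DESeq2, beside 3.20% and 3.24%. The groups of these 3 genes did not overlap, as for 10.8% of all genes in the lower and 11.8% in the higher direction. Loss of Blimp-1 gave 0.450% higher and 0.306% lower among all 17335 genes tested. Without Control replicate 2, 2 of the 6 passed the test, Csn1s1 as lower and Sgce as higher. In that comparison 8.25% of 17968 genes were higher and 5.72% lower.

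Csn1s1 was at 534, 382 and 509 CPM in Control and at 131, 241 and 163 CPM in Blimp-1-deficient ILC2s. All 3 deficient libraries were below all 3 Control libraries, and Control replicate 2 was the lowest Control. The means were 475 ± 81.5 and 178 ± 56.7 CPM (SD, n = 3 each). The log2 fold change was -1.42 (SE 0.26, adjusted p = 0.0757, edgeR), which misses the threshold. Without Control replicate 2 it was -1.54 (SE 0.22, adjusted p = 0.00613, edgeR), with DESeq2 over all libraries -1.40 (adjusted p = 1.66e-05), and with a mean count of at least 50 as the filter -1.43 (adjusted p = 0.0475, edgeR). Over the libraries left out in turn the adjusted p ran from 0.00613 to 0.407. In limma on log2(TPM + 1) the direction turned to 0.28, on a scale where the median of all genes was 1.28 and where Control replicate 2 was at 6.64 TPM against 318.7 and 320.8 in the other Controls. Relative to that median the value was -1.0.

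Csn2 was at 39.1, 45.3 and 33.0 CPM in Control and at 32.7, 29.9 and 29.1 CPM in Blimp-1-deficient ILC2s. The groups did not overlap, by a small margin, and the means were 39.1 ± 6.16 and 30.6 ± 1.91 CPM (SD, n = 3 each). Its log2 fold change of -0.35 (SE 0.13, adjusted p = 0.379, edgeR) did not pass the test, nor did -0.23 (SE 0.10, adjusted p = 0.159) without Control replicate 2. Its direction turned to 0.21 with scaling by library size only, where the median of all genes was 0.45.

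The ratio of Csn1s1 to Csn2 per base of exon was 15.1, 9.36 and 17.1 in Control and 4.43, 8.93 and 6.22 in Blimp-1-deficient libraries. All 3 deficient libraries were lower, with Control replicate 2 close to the highest of them. The difference of the mean log2 ratio was -1.10 (two-sided exact permutation test, p = 0.1, the smallest that 3 against 3 libraries allow). The ratio of Csn1s1 to Csn1s2b differed in the other direction, at 145 ± 39.1 in Control and 349 ± 182 in Blimp-1-deficient libraries (SD, n = 3 each). Its groups overlapped, and the difference of its mean log2 was 1.16 (two-sided exact permutation test, p = 0.2). As these ratios are formed within a library, they do not depend on the scaling between libraries.

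Csn1s2a was at 0.591, 0 and 0.222 CPM in Control, from 49, 0 and 21 counts, and at 0.145, 0.0903 and 0.0207 CPM in Blimp-1-deficient ILC2s, from 12, 7 and 2 counts. The groups overlapped because Control replicate 2, whose limit for 0 counts is 0.731 CPM, had none. The log2 fold change was -1.99 (SE 0.93, adjusted p = 0.483, edgeR), and -2.25 (SE 0.72, adjusted p = 0.0811) without Control replicate 2. Csn1s2b, next to it, was at 3.55, 1.70 and 1.93 CPM in Control and at 0.266, 0.941 and 0.207 CPM in Blimp-1-deficient ILC2s, with no overlap. Its log2 fold change was -2.38 (SE 0.67, adjusted p = 0.223, edgeR), and -2.55 (adjusted p = 0.0347, edgeR) without Control replicate 2, where it passed the test. Csn3 was at 1.33, 0.731 and 0.982 CPM and at 0.459, 0.748 and 1.17 CPM, from 3 counts in Control replicate 2 to 113 counts. Its groups overlapped (log2 fold change -0.41, SE 0.44, adjusted p = 0.780, edgeR), and without Control replicate 2 it did not pass the test either (-0.53, SE 0.38, adjusted p = 0.388, edgeR).

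Peg10 was at 1483, 1159 and 1034 CPM in Control and at 1391, 1312 and 1617 CPM in Blimp-1-deficient ILC2s. The groups overlapped, with means of 1225 ± 232 and 1440 ± 159 CPM (SD, n = 3 each) and a log2 fold change of 0.23 (SE 0.19, adjusted p = 0.709, edgeR). Without Control replicate 2 it was 0.20 (SE 0.16, adjusted p = 0.441). Sgce was at 20.7, 19.2 and 19.6 CPM in Control and at 23.8, 26.1 and 24.7 CPM in Blimp-1-deficient ILC2s, with no overlap and little spread within each group. The means were 19.8 ± 0.757 and 24.9 ± 1.15 CPM (SD, n = 3 each). The log2 fold change of 0.32 (SE 0.09, adjusted p = 0.232, edgeR) did not pass over all libraries. It passed without Control replicate 2 (0.32, SE 0.07, adjusted p = 0.0291, edgeR) and in DESeq2 (0.33, adjusted p = 0.0446). The ratio of Peg10 to Sgce was 114, 95.9 and 84.0 in Control and 92.9, 79.9 and 104 in Blimp-1-deficient libraries (two-sided exact permutation test, p = 0.7).

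**Figure D4:**
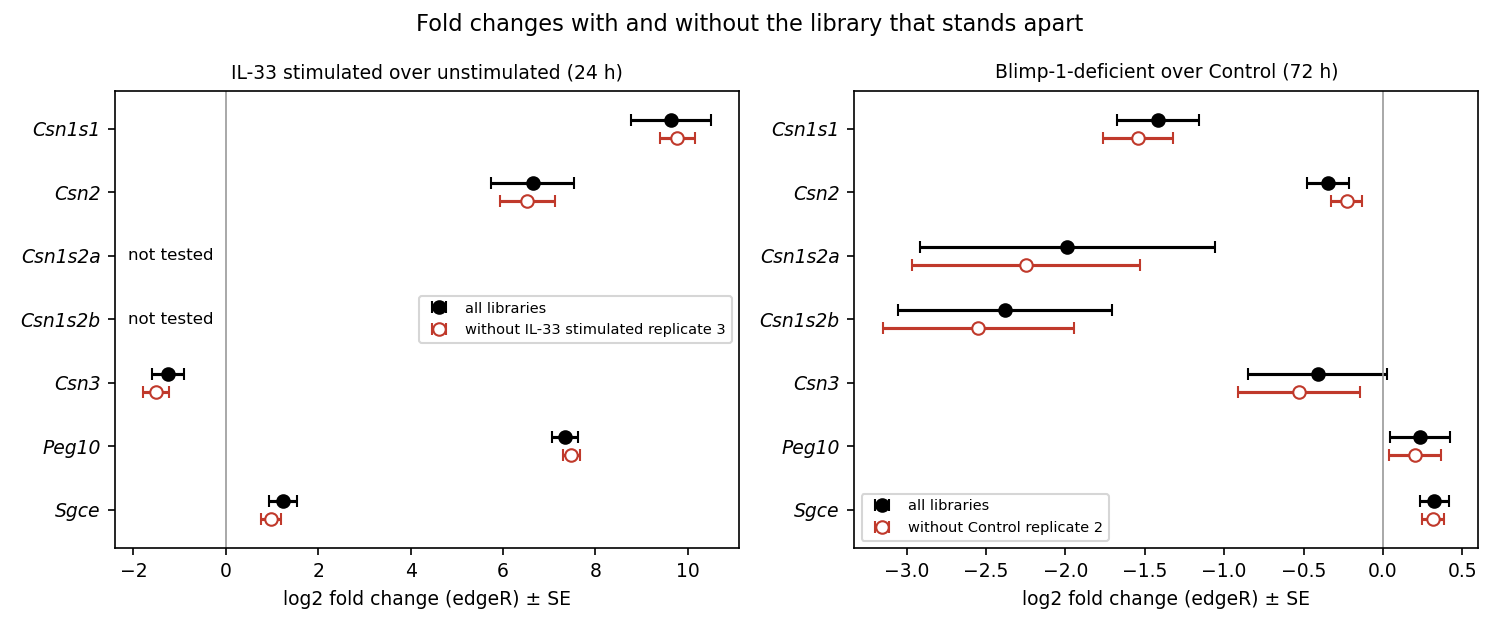
Log2 fold change with SE (edgeR) of the 6 genes and Csn1s2b after IL-33 (left) and in Blimp-1-deficient against Control ILC2s (right), over all libraries (filled) and without IL-33 stimulated replicate 3 or Control replicate 2 (open). Csn1s2a and Csn1s2b were below the filter after IL-33. Csn1s1 has 9.64 on the left and -1.42 on the right, Peg10 7.34 and 0.23.

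On one scale over all 14 libraries, Csn1s1 had its order of levels from Control (426.9 to 621.9 CPM) over Blimp-1-deficient (149.2 to 275.3) and IL-33 stimulated (20.5 to 32.6) down to unstimulated ILC2s (0 to 0.110), with no overlap between neighbours. Csn2 had the same order, again with no overlap, though Control (37.8 to 50.6 CPM) and Blimp-1-deficient (33.0 to 37.3) nearly met. For Peg10 the Blimp-1-deficient (1498 to 1840 CPM) and Control (1184 to 1726) libraries overlapped, and both lay above the IL-33 stimulated (391.6 to 686.6) and unstimulated (2.50 to 3.83) libraries. For Sgce the order was Blimp-1-deficient (27.2 to 29.8 CPM), Control (21.5 to 24.1), IL-33 stimulated (4.31 to 10.6) and unstimulated (2.1 to 3.47). Csn3 was highest in unstimulated ILC2s (1.56 to 2.51 CPM), and its other 3 groups overlapped each other. Time, the added IL-25, possibly IL-2, and mouse genotype differ between the experiments and cannot be told apart, so these orders carry no test.

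In the Blimp-1 experiment 133 listed genes were tested, of which 3 were higher and 0 were lower, beside 0.450% and 0.306% of all genes. Ppp1r9a, the neighbour of Peg10, was at 2.55 ± 0.318 CPM in Control and 6.72 ± 0.621 CPM in Blimp-1-deficient ILC2s (SD, n = 3 each, log2 fold change 1.37, adjusted p = 0.0398, edgeR). Pim2 rose from 77.0 ± 15.4 to 211.1 ± 15.5 CPM (1.45, adjusted p = 0.0294, edgeR) and Bcl2 from 61.7 ± 3.82 to 138.3 ± 10.1 CPM (1.16, adjusted p = 0.0122, edgeR), both among the STAT5 targets. At an unadjusted p below 0.05 there were 19 higher and 7 lower (edgeR), beside 6.17% and 5.78% of all genes, and DESeq2 called 13 and 6, beside 3.24% and 3.20%. Leaving out Control replicate 2 gave 21 and 10, beside 8.25% and 5.72% of all genes. Leaving out each other library in turn gave 0 and 0, where 0 to 7 genes were higher and 0 to 2 lower over all genes.

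Without Control replicate 2, 8.25% of all 17968 genes tested were higher and 5.72% lower, and the list counts that follow stand beside these shares. In this setting 10 genes of the Peg10 neighbourhood were tested and 3 were higher, Ppp1r9a (1.31), the paraoxonase gene Pon3 (0.35) and Casd1 (0.26). Around the caseins Rufy3 was higher (0.45, adjusted p = 0.0422, edgeR) and Csn1s2b was lower. Of 47 other imprinted genes, 5 were higher and 1 was lower, the largest rises being Meg3 (2.44, against -0.05 over all libraries), Dlk1 (2.04), Rian (2.03, against 0.38) and Dcn (1.33), of which Dcn is also on the stromal marker list. Of 13 genes derived from retrotransposon Gag, Pnma1 was lower (-0.70). Of 11 milk genes, Xdh, a component of milk fat globules, was higher (0.64) and Plin2 was lower (-0.68). Of 18 genes of prolactin and STAT5 signalling, 5 were higher, among them Jak2 (0.53), and Nr3c1, the glucocorticoid receptor gene (-0.42), and Ptpn2 were lower. Of the 23 STAT5 targets, 5 were higher, led by Lta (1.73) and Pim2 (1.31), and 4 were lower, led by the feedback inhibitor gene Socs3 (-0.84) and Il2ra, the IL-2 receptor alpha chain gene (-0.69). Of 11 genes of the dystrophin-glycoprotein complex, Utrn was higher (0.58).

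Markers moved in this experiment as well. The epithelial markers summed to 8.83 to 13.9 CPM in Control and 13 to 31.75 CPM in Blimp-1-deficient ILC2s. The 6 of them that were tested had a median log2 fold change of 1.28, and Sftpa1 and Scgb3a2 were at 0 in both groups. The stromal and endothelial markers summed to 251.7 and 399.4 CPM in Control replicates 1 and 3, to 4620 CPM in Control replicate 2 and to 591.9 to 866.9 CPM in Blimp-1-deficient ILC2s. Without Control replicate 2, where Csn1s1 and Sgce were called, all 11 of these markers lay above 0 (median log2 fold change 1.21). Of the 11, 5 were higher, Lum, Pdgfra, Dcn, Pdgfrb and Pecam1, beside 8.25% of all genes. The epithelial marker Krt8 was higher too. Col1a2 alone was at 1337 CPM in Control replicate 2 against 31.0 and 79.1 CPM in the other Controls. The T cell markers summed to 38.9 to 45.55 CPM in Control and 48.9 to 54.4 CPM in Blimp-1-deficient ILC2s, though only 4 of the 10 leaned upward (median log2 fold change -0.41), the B cell markers to 22.9 to 28 and 23.4 to 30.1 CPM, the myeloid markers to 101.6 to 576.9 and 88.3 to 408.4 CPM and the mast cell or basophil markers to 136.6 to 150.5 and 163.3 to 210.8 CPM. The 15 ILC2 markers summed to 22740 and 22440 CPM in Control replicates 1 and 3, to 13460 CPM in Control replicate 2 and to 14660, 18190 and 19240 CPM in Blimp-1-deficient ILC2s. Without Control replicate 2, 4 of them were higher and 6 were lower, among the latter Klrg1 and Il1rl1, beside 8.25% and 5.72% of all genes. Their part in the levels of Csn1s1 or Sgce was not tested.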

How the data were processed

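RNA was measured in 14 libraries (SMART-seq v4, Nextera XT), 1 per mouse. The authors trimmed paired reads of 75 bases with cutadapt, aligned them to GRCm38 and counted reads with Subread. They deposited raw counts and TPM, each experiment separately. The study's methods name HISAT2 as the aligner, while the processing notes of the samples name Bowtie2, so the aligner is not settled. TPM are scaled to the whole library, so a library dominated by a few genes lowers the TPM of all others. The strand setting is not given in the sources used here.

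Counts went through edgeR 4.0.16 (R 4.3.3): TMM factors, filterByExpr and the two-sided quasi-likelihood test, adjusted by Benjamini-Hochberg over all genes tested, with a threshold of 0.05 (tested on simulated data). Alternatives were DESeq2 1.42.0, RLE size factors, library size alone, no filter, a mean count of at least 50, limma 3.58.1 on log2(TPM + 1) or log2(TPM + 0.1) with a filter on mean TPM of 1, a replicate block, and each library left out. Ratios were compared by an exact permutation test. Named are the 6 genes, the genes next to Csn1s1 and Peg10 in rank, the 5 genes most alike by Pearson r of log2 CPM (prior count of 2), up to 4 genes per direction of each of 8 lists past the threshold, and genes of both regions. Wap, Lalba, Prlr, Elf5, Stat5a and Stat5b were singled out beside them. The genes and lists were chosen with earlier results of these data known. Positions are from the GENCODE annotation of GRCm38, promoters from RefSeq (GRCm38.p6).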

Additional observations from a re-analysis of the deposited data

Results flagged for a closer look

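The spread of the 6 genes within the groups of 4 libraries was examined by Dixon's ratio, the gap of the outermost library over the range of its group. Of the 12 groups, that of Csn1s2a in unstimulated ILC2s was at 0 throughout, so it had no range and gave no ratio. Chance is expected to mark about 1 in 20 of the others. Unstimulated replicate 4 stood apart from the other 3 unstimulated libraries for Csn1s1 (0.126 CPM) and for Csn2 (0.0945 CPM), which are 4 and 3 counts against 0 in the others. IL-33 stimulated replicate 1 stood apart for Csn1s2a at 0.0329 CPM, which is 1 count against 0. These 3 cases follow from groups that are otherwise at 0. Unstimulated replicate 1 stood apart for Csn3 at 2.78 CPM, with a gap of 0.882 of the range, and without that library the log2 fold change of Csn3 after IL-33 was -1.01.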

How the results depend on the processing

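The fold changes of the 5 genes tested after IL-33 kept their direction under every alternative that gave a value. Csn1s2a was below the filter there, and DESeq2 gave it 1.1 from 1 count, with no adjusted p. On log2(TPM + 1) the values were 3.78 for Csn1s1, -0.79 for Csn3, 6.36 for Peg10 and 0.49 for Sgce, and on log2(TPM + 0.1) they were 6.83 for Csn1s1, 6.92 for Peg10 and 0.80 for Sgce. A pseudocount shrinks low levels by construction, and Csn2 was below the TPM filter. DESeq2 gave 6.87 for Csn2. With 1 library left out the ranges were 9.26 to 12.67 for Csn1s1, 6.31 to 9.34 for Csn2, -1.51 to -1.01 for Csn3, 7.17 to 7.51 for Peg10 and 0.97 to 1.38 for Sgce, the highest for both caseins without unstimulated replicate 4. The list genes higher after IL-33 numbered 11 on either TPM scale and 15 to 31 with 1 library left out. Those lower numbered 25 with library size alone, 32 on log2(TPM + 1), 29 on log2(TPM + 0.1) and 9 to 40 with 1 library left out.

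In the Blimp-1 comparison Csn1s1 had -1.43 with a mean count of at least 50 and -1.40 in DESeq2, both past the threshold, and -1.69 to -1.23 with 1 library left out. The ranges were -0.45 to -0.23 for Csn2, -2.56 to -1.03 for Csn1s2a, -0.79 to -0.12 for Csn3, 0.13 to 0.41 for Peg10 and 0.30 to 0.37 for Sgce, and Sgce had 0.33 in DESeq2. The TPM scales moved the median of all genes to 1.28 (pseudocount 1) and 1.69 (pseudocount 0.1), and library size alone moved it to 0.45. On them Csn1s1 was at 0.28 and 0.33, and Csn2 at 1.05 and 1.38 and, with library size alone, 0.21. Relative to those medians Csn1s1 was at -1.0 and -1.36 and Csn2 at -0.24, -0.31 and -0.23. With pseudocount 1, pseudocount 0.1 and library size alone, Peg10 was at 2.00, 2.03 and 0.70, and relative to the medians at 0.72, 0.34 and 0.25. Sgce was at 1.26, 1.92 and 0.80 in these settings, and relative to the medians at -0.02, 0.23 and 0.35. Higher list genes numbered 1 with library size alone, 13 in DESeq2, 0 on either TPM scale and 0 to 21 with 1 library left out, and lower ones 1 with a mean count of at least 50, 6 in DESeq2 and 0 to 10 with 1 library left out. The cause of these changes of call was not tested.

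Over all genes, 2508 were higher and 2484 lower after IL-33, against 1672 and 1840 with no filter, 1805 and 3691 with library size alone, 990 and 4555 on log2(TPM + 1), 975 and 4373 on log2(TPM + 0.1) and 4328 and 4666 without IL-33 stimulated replicate 3. In the Blimp-1 comparison 78 were higher and 53 lower, against 149 and 107 with a mean count of at least 50, 557 and 551 in DESeq2, 0 and 0 on log2(TPM + 1), 1 and 0 on log2(TPM + 0.1), and 0 to 1483 and 0 to 1027 with 1 library left out. The replicate numbers are shared by groups that the series describes as different mice. The deviations of same-numbered stimulation libraries had correlations of -0.145 for number 1 and of 0.217, 0.282 and 0.177 for numbers 2 to 4, and those of the Blimp-1 libraries of -0.133, -0.134 and 0.122. As not every pair was above 0.1, the numbers were not taken to pair the samples. With the replicate block Csn2 after IL-33 was 6.84, the calls over all genes were 1802 higher and 1898 lower after IL-33 and 0 and 0 in the Blimp-1 comparison (1380 genes at an unadjusted p below 0.05), and 0 list genes were higher there. Few counts limit Csn1s2a in all groups, and Csn3 and Csn1s2b in Control replicate 2.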
